A study of Mus musculus with 6 samples.

Results

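The voltage-gated calcium channel pore subunits are described here across nuclei of mouse brain: Cacna1c, Cacna1d, Cacna1a, Cacna1b, Cacna1e, Cacna1g, Cacna1h and Cacna1i. The rule takes them by name and uses no measured value, although the set was proposed with earlier results of these data known. They are 8 of the 25696 mouse gene symbols found in any of the deposited tables, and each table lists all 8. The 2 other pore genes of the family, Cacna1s and Cacna1f, known from skeletal muscle and retina, had 0 UMIs in the droplet nuclei and did not pass the filter on low counts in any bulk fit.

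Each of these genes encodes the large subunit that forms the pore and the voltage sensors of a calcium channel. When the membrane depolarises, the pore opens and calcium enters the cell, where it triggers transmitter release, activates potassium channels and signals to the nucleus. Cacna1c and Cacna1d carry L-type currents of cell bodies and dendrites, Cacna1a and Cacna1b carry the P/Q-type and N-type currents that drive release at nerve terminals, and Cacna1e carries the R-type current. Cacna1g, Cacna1h and Cacna1i carry T-type currents, which open at more negative voltages and support burst firing.

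The study tests single-nucleus RNA profiling of formalin-fixed, paraffin-embedded (FFPE) tissue. All 6 GEO samples carry the label cortex, from C57BL/6J mice 8 to 12 weeks old, with no sex, animal or genetic change named, and the nuclei came from 50 µm scrolls. Bulk wells of 10, 50 or 100 nuclei compare 3 ways of removing paraffin, namely heated mineral oil, heated xylene and xylene at room temperature, beside wells of frozen nuclei. SCRB-seq (a method that reads transcripts from the 3′ end) has 16 wells in each of these 4 groups, 8 of 10 nuclei and 8 of 100. Full-length SMART-Seq2 has 3 wells a group, 1 each of 10, 50 and 100 nuclei. Single nuclei were profiled in SMART-Seq2 plates, FFPE and frozen, and in droplets, FFPE. The frozen wells and nuclei are named in the deposited annotation only, and the sources used here give no animal or dissection for them.

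The labels call the tissue cortex, yet markers of cerebellar granule neurons were found in FFPE material of the bulk, plate and droplet tables. In SCRB-seq the 7 granule markers in the table summed to 1724 CPM (counts scaled to a common library total) over the FFPE wells, with a range of 312 to 6421 among wells, and to 39.4 over the frozen wells, with a range of 0 to 101. Gabra6 and Cbln3, which define granule neurons, were at 0 in the frozen wells. The 8 markers of glutamatergic cortical neurons summed to 623 CPM in FFPE and 2394 in frozen wells, and the 6 oligodendrocyte markers to 2043 and 339. In SMART-Seq2 wells the granule sum was 2161 against 104 CPM, and the glutamatergic sum 413 against 2515. All FFPE and frozen values below stand beside these differences in the cells sampled, whose part in the results was not tested. In wells of many nuclei, fewer cells of a type and less RNA per cell cannot be told apart.

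The 8 genes share a pore-loop sequence that sorts them into their families, and it is shown to give how alike the members are in this stretch. Each stretch codes for the third of the 4 pore loops of the channel, and the codon in capitals is that of the residue that binds calcium in the selectivity filter. All are given 5′ to 3′ on the coding strand, from GENCODE M21 transcripts on GRCm38.

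Cacna1c, exons 27 and 28, within chr6:118654446-118656144: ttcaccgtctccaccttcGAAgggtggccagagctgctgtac
Cacna1d, exons 27 and 28, within chr14:30099234-30100728: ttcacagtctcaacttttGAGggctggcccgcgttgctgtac
Cacna1a, exons 27 and 28, within chr8:84581320-84583568: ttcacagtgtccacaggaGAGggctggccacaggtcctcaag
Cacna1b, exons 28 and 29, within chr2:24650619-24651112: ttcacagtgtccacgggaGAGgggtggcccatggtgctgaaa
Cacna1e, exons 29 and 30, within chr1:154443993-154444903: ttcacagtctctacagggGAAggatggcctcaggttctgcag
Cacna1g, exon 24, chr11:94426450-94426491: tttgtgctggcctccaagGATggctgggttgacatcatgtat
Cacna1h, exon 24, chr17:25383487-25383528: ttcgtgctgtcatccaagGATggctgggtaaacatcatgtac
Cacna1i, exon 24, chr15:80376789-80376830: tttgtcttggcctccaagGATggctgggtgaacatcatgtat

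In the 5 channels opened by strong depolarisation the codon was GAA or GAG, both for glutamate, and the 42 bases were split between neighbouring exons. In the 3 T-type genes the codon was GAT, for aspartate, and the 42 bases lay within exon 24. Any 2 of the 5 shared 28 to 34 of the 42 bases, any 2 of the T-type genes shared 35 to 38, and pairs across the groups shared 18 to 23. Within this exonic stretch no pair was identical. The genes themselves are long: Cacna1c spans 609 kb (chr6:118587240-119196418, minus strand), Cacna1e 494 kb (chr1:154390731-154884501, minus), Cacna1d 452 kb (chr14:30039939-30491455, minus), Cacna1a 252 kb (chr8:84388440-84640246, plus) and Cacna1b 159 kb (chr2:24603887-24763152, minus). The T-type genes are shorter, with 111 kb for Cacna1i (chr15:80287238-80398279, plus), 65.8 kb for Cacna1g (chr11:94408391-94474198, minus) and 59.5 kb for Cacna1h (chr17:25374285-25433783, minus).

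**Figure D1:**
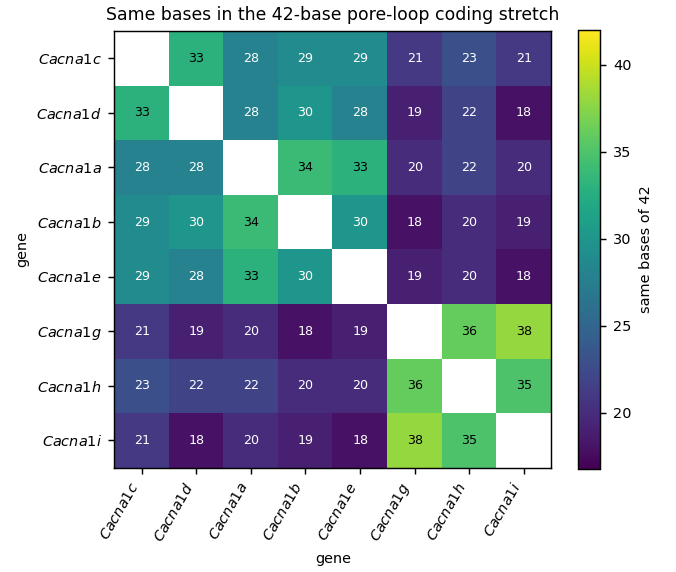
Number of identical bases (colour and printed value) among the 42 coding bases of the pore loop for each pair of genes, with genes on both axes. The 3 T-type genes form a block of 35 to 38 identical bases, the other 5 a block of 28 to 34, and pairs between the blocks share 18 to 23.

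Depth differed between tables and groups. A SCRB-seq well held 7512 to 167144 mouse counts and a SMART-Seq2 well 270363 to 942966, and the shallowest group was the mineral oil wells of 10 nuclei, with a median of 14558 counts. The 8 genes took 0.227% to 0.289% of SCRB-seq counts by method, 0.346% to 0.466% of SMART-Seq2 counts and 0.208% of droplet UMIs. The wells of a bulk table all belong to a single GEO sample, so they are technical and p-values measure only the spread between wells.

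The frozen SMART-Seq2 wells give an order of the 8 genes for that chemistry, on a scale that allows for transcript length. Pooled levels per kilobase of exon were 68.6 CPM for Cacna1a, 59.1 for Cacna1d, 54.6 for Cacna1c, 36.1 for Cacna1e and 29.5 for Cacna1b. The T-type genes lay far below, at 4.67 CPM per kilobase for Cacna1i, 3.21 for Cacna1g and 1.89 for Cacna1h. In the frozen plate nuclei Cacna1a was also first on this scale, at 76.7 CPM per kilobase (48.7 without 2 nuclei described below). Cacna1c, Cacna1d and Cacna1b followed at 37.3, 35.8 and 35.5. Cacna1h stood at 21.3, Cacna1e at 17.9 and Cacna1i at 9.79, and Cacna1g was last at 3.35. The frozen SCRB-seq wells, read from the 3′ end and not scaled by length, gave another order. Their pooled levels were 781 CPM for Cacna1a, 639 for Cacna1c, 526 for Cacna1e and 338 for Cacna1i. Cacna1d had 268, Cacna1b 252, Cacna1h 44.1 and Cacna1g 37.5. Droplet UMIs of nuclei may include unspliced RNA, whose share was not measured, and were scaled by gene length. On that scale Cacna1a had 2.65 CPM per kilobase of gene. Cacna1c, Cacna1b, Cacna1e, Cacna1d and Cacna1i lay within 0.62 to 0.82, Cacna1g had 0.52 and Cacna1h 0.20. The first place varied between wells: of the frozen wells, Cacna1a was above Cacna1d in that of 10 nuclei, at 81.5 against 51.8 CPM per kilobase of exon, but below it in those of 50 nuclei (56.4 against 76.8) and 100 nuclei (51.1 against 62.8). In the pooled heated xylene wells Cacna1c was above Cacna1a, at 81.6 against 73.6.

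The first comparison sets FFPE wells against frozen wells. In SCRB-seq, Cacna1b and Cacna1i were lower in FFPE wells, while Cacna1c, Cacna1d, Cacna1a and Cacna1e did not pass the test. The fitted difference, which gives equal weight to the 3 methods, was more than 4-fold for each of the 2. Pooled Cacna1b was 252 CPM frozen, 10.2 after mineral oil, 92.3 after heated xylene and 99.5 after room-temperature xylene. Pooled Cacna1i was 338, 80.5, 73.6 and 123 CPM in the same order. Of 1478 mouse genes tested with edgeR's quasi-likelihood test, 58% passed an adjusted p of 0.05 in either direction and 27.7% were lower in FFPE. The 2 called members of 6 tested are near that second share. The median difference of the 6 was -0.23 on the log2 scale, and that of all genes tested 0.00.

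Cacna1b, the N-type pore of nerve terminals, ranged from 106 to 498 CPM in the 16 frozen wells, with a median of 227. In the FFPE wells it ranged from 0 to 122 with a median of 0 after mineral oil, from 0 to 487 with a median of 55.0 after heated xylene, and from 13.1 to 695 with a median of 67.9 after room-temperature xylene. The frozen wells were high as a group but overlapped all 3 FFPE groups at their upper ends. The difference was -2.42 on the log2 scale (SE 0.37, edgeR adjusted p = 4.32e-08). In mineral oil 7 counts of Cacna1b were found in all, in 4 of 16 wells.

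Cacna1i, a T-type pore known from thalamic reticular neurons, ranged from 54.1 to 793 CPM in the frozen wells, with a median of 329. It ranged from 0 to 217 CPM after mineral oil (median 0), from 0 to 192 after heated xylene (median 44.4) and from 26.3 to 226 after room-temperature xylene (median 97.5). All FFPE medians lay below the frozen median, and the ranges overlapped. The difference was -2.21 (log2, SE 0.32, edgeR adjusted p = 1.45e-08). Both genes were called in each alternative fit that tested them, but neither passed the filter when only wells of 10 nuclei were used.

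The other tested members had frozen and FFPE wells that overlapped widely. Cacna1c, the main L-type pore of neurons, had frozen wells between 162 and 772 CPM (median 631), and medians of 131 after mineral oil, 646 after heated xylene and 782 after room-temperature xylene, with a log2 difference of 0.02 (SE 0.32, edgeR adjusted p = 0.958). Cacna1d, the L-type pore that opens at lower voltages, had medians of 271 CPM frozen and 203, 252 and 270 in the 3 FFPE groups, in the same order, with a difference of 0.26 (SE 0.29). The medians of these L-type genes differed mostly in the mineral oil wells.

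Cacna1a, the P/Q-type pore, had medians of 792 CPM in frozen wells and 762, 743 and 893 after mineral oil, heated xylene and room-temperature xylene, and a log2 difference of 0.05 (SE 0.25). Cacna1e, the R-type pore, had medians of 503 CPM frozen and 172, 411 and 354, and a difference of -0.49 (SE 0.29, edgeR adjusted p = 0.135). Cacna1g and Cacna1h did not pass the filter on low counts, with 37.5 and 44.1 pooled CPM in frozen wells, 8.78 and 24.9 after mineral oil, 61.2 and 56.8 after heated xylene and 35.2 and 37.7 after room-temperature xylene. For these T-type genes the depth per well was too low for a statement.

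**Figure D2:**
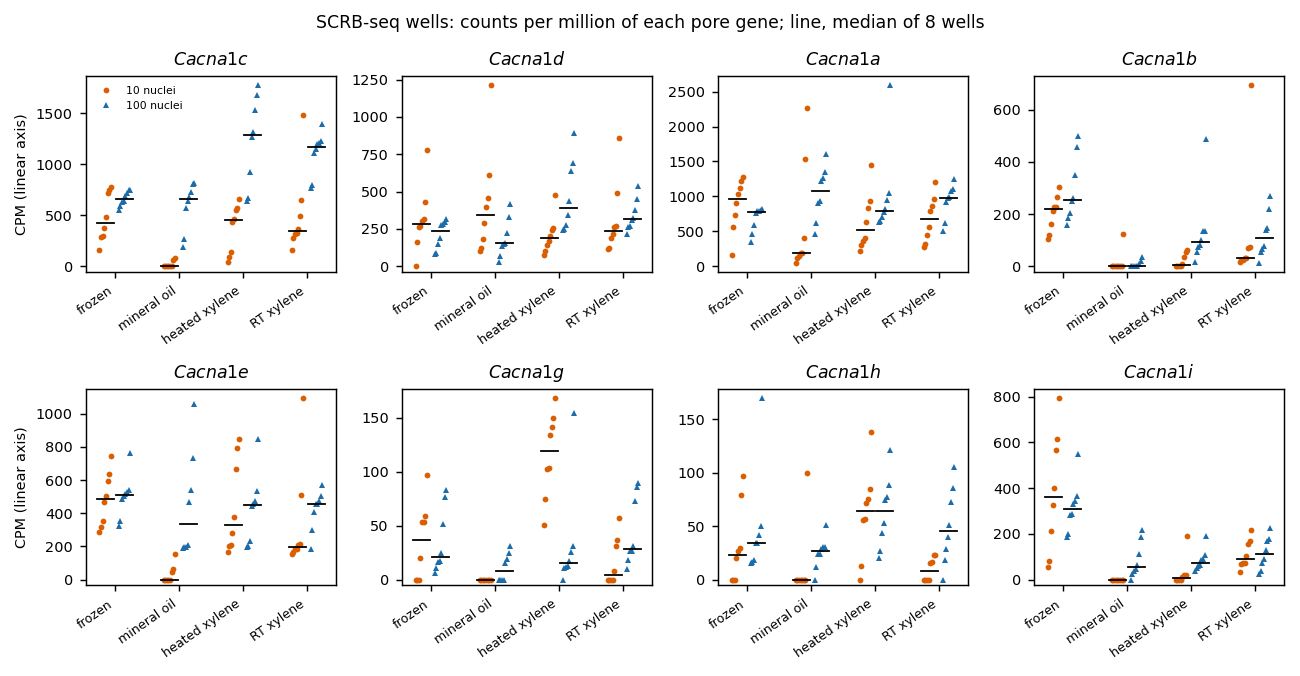
CPM (vertical axis, linear, scaled separately per gene) of each pore gene in every SCRB-seq well, by group (horizontal axis), with circles for wells of 10 nuclei, triangles for wells of 100 nuclei and lines for the median of 8 wells. Cacna1b and Cacna1i lie highest in the frozen wells, and in mineral oil wells of 10 nuclei 6 of the 8 genes, all but Cacna1a and Cacna1d, have medians of 0.

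The FFPE wells of 10 nuclei departed from those of 100 nuclei. In the 8 mineral oil wells of 10 nuclei, Cacna1c had 2 counts in all, in 2 wells, Cacna1e had 4 in 3 wells, Cacna1b and Cacna1h had 2 each in 1 well, and Cacna1g and Cacna1i had 0. In these same wells Cacna1d had 53 counts and Cacna1a had 59, each with a count in all 8 wells. Cacna1c had 158 counts in the 8 frozen wells of 10 nuclei (median 428 CPM) and 360 in the mineral oil wells of 100 (median 659 CPM). Cacna1g went another way in heated xylene, with 52 counts spread over all 8 wells of 10 nuclei (50.5 to 168 CPM, median 119) and 17 counts in the wells of 100 (median 15.1 CPM).

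Whether FFPE minus frozen differed between 10 and 100 nuclei was tested as an interaction, which was added after the values had been seen. Of 2511 genes tested, 16.6% passed. Cacna1c was called at -1.99 (log2, SE 0.48, edgeR adjusted p = 0.00393), and so was Cacna1i at -2.26 (SE 0.79, edgeR adjusted p = 0.0397). For Cacna1i, FFPE was lower at 100 nuclei too, by -1.77 with those wells alone, whereas Cacna1c was then at 0.41 (edgeR adjusted p = 0.0927), so that its direction turned between the nuclei numbers. Cacna1e had -1.02 (edgeR adjusted p = 0.145), Cacna1a -0.90, Cacna1d -0.43 and Cacna1b 0.00. With wells of 10 nuclei alone, Cacna1c was lower in FFPE by -1.64 (edgeR adjusted p = 0.00212) and Cacna1e by -1.47 (edgeR adjusted p = 0.00216). These were 2 of the 4 members tested there, and 231 of 783 genes, 29.5%, were called lower in that fit. The contrast gives equal weight to the 3 methods, and the mineral oil wells stood furthest from frozen. In wells of 10 nuclei, pooled Cacna1c was 537 CPM frozen, 17.4 after mineral oil, 350 after heated xylene and 447 after room-temperature xylene. Cacna1e was at 506, 34.7, 484 and 318 CPM in the same order. The wells that share a method and a nuclei number were also pooled as 1 library, and that pool cannot be told apart from the group.

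In the SMART-Seq2 wells none of the 8 members passed the test between FFPE and frozen, where 372 of 9092 genes tested, or 4.09%, did. Cacna1b had 331, 229 and 259 CPM in the frozen wells of 10, 50 and 100 nuclei. It had 0, 109 and 218 CPM after mineral oil, 88.0, 89.3 and 173 after heated xylene, and 0, 266 and 99.9 after room-temperature xylene, in the same order of nuclei numbers. All but 1 of the 9 FFPE wells lay below the lowest frozen well, and the difference was -1.54 (log2, SE 0.89, edgeR adjusted p = 0.463). The share of all genes whose FFPE and frozen wells part in such ways was not counted, here or for Cacna1d and Cacna1i below.

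Cacna1d was the 1 member with an unadjusted p under 0.05 in this contrast. It had 654, 969 and 793 CPM in the frozen wells, 347, 345 and 385 after mineral oil, 383, 522 and 504 after heated xylene, and 859, 653 and 618 after room-temperature xylene. The mineral oil and heated xylene wells all lay below the frozen wells, and the room-temperature wells overlapped them. The difference was -0.94 (log2, SE 0.33, edgeR adjusted p = 0.131), whereas it was 0.26 in SCRB-seq.

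Cacna1i did not show in SMART-Seq2 what it showed in SCRB-seq. Its frozen wells had 42.6, 62.9 and 42.9 CPM, and its FFPE wells 72.2, 121 and 71.4 after mineral oil, 0, 75.3 and 89.3 after heated xylene and 26.4, 95.3 and 122 after room-temperature xylene. Of the 9 FFPE wells, 7 lay above all frozen wells, with a difference of 0.30 (log2, SE 1.02). Cacna1c had 0.07, Cacna1a 0.30, Cacna1e -0.47, Cacna1g -1.61 (SE 1.25) and Cacna1h -2.34 (SE 1.26), none of which passed. The difference between the 2 chemistries was not tested.

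**Figure D3:**
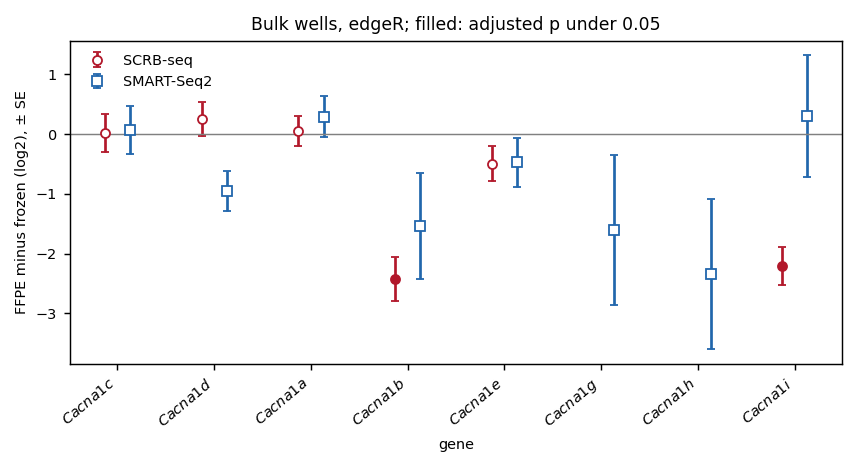
FFPE minus frozen (vertical axis, log2, error bars 1 SE) from edgeR for each pore gene (horizontal axis), with red circles for SCRB-seq and blue squares for SMART-Seq2, filled where the adjusted p is under 0.05. Only Cacna1b and Cacna1i in SCRB-seq are filled, at -2.42 and -2.21, while Cacna1i stands at 0.30 in SMART-Seq2.

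RefSeq promoters of the 2 genes called lower in SCRB-seq are printed because these members moved together in that contrast. The 250 bases before the start are given 5′ to 3′ in gene direction on GRCm38, and capitals mark each GC box, here the letters GGGCGG searched on both strands. Promoters were matched for 5 of the 8 genes.

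Cacna1b, chr2:24763153-24763402, minus strand: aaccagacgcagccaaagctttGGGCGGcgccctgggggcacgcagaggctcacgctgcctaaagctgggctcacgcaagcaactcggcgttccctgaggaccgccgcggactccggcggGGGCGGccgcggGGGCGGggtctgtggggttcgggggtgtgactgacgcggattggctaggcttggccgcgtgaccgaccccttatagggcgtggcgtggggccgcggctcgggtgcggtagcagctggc
Cacna1i, chr15:80286988-80287237, plus strand: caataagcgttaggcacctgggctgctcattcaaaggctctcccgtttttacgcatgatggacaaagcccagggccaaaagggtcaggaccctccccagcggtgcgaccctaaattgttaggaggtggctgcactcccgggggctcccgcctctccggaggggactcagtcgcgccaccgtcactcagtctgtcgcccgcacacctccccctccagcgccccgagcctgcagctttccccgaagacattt

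The Cacna1b window was 72% G or C with 29 CpG pairs and held GC boxes, and that of Cacna1i was 62.4% G or C with 16 CpG pairs and held none. Over 32851 promoters of the same length the medians were 52.4% and 6 CpG pairs, and 32.7% held a GC box. The 2 windows therefore did not share this motif.

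The second comparison is between the ways of removing paraffin. In SCRB-seq no tested member passed in any pair. Cacna1c came nearest to the threshold, with less after mineral oil than after either xylene method. Between mineral oil and heated xylene, 8.52% of the 1080 genes tested passed, between mineral oil and room-temperature xylene 10.3%, and between the xylene methods 1.94%. The members that could be tested were 4: Cacna1c, Cacna1d, Cacna1a and Cacna1e. At an unadjusted p under 0.05, 1 member, Cacna1c, was found in both mineral oil pairs.

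In mineral oil wells Cacna1c lay between 0 and 813 CPM, in heated xylene wells between 37.4 and 1776, and in room-temperature wells between 156 and 1477, so all 3 ranges overlapped. Its pooled levels were 530, 887 and 848 CPM. The difference was -1.24 against heated xylene (log2, SE 0.45, edgeR adjusted p = 0.0774) and -1.28 against room-temperature xylene (SE 0.45, edgeR adjusted p = 0.0592). It passed in both pairs under 6 of 7 alternatives, that is all but DESeq2's size factors. With wells of 100 nuclei alone it was -1.05 (edgeR adjusted p = 0.00721) and -0.83 (edgeR adjusted p = 0.0429), and with wells of 10 nuclei, of which 6 of 8 mineral oil wells had 0 counts, -4.38 (edgeR adjusted p = 0.000409) and -4.97 (edgeR adjusted p = 8.16e-05).

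Cacna1b did not pass the filter on low counts in these pairs. Its pooled levels were 10.2 CPM after mineral oil, from 7 counts in 16 wells, 92.3 after heated xylene and 99.5 after room-temperature xylene. With a looser filter, which let all 8 members in, it was called at -2.91 (SE 0.70, edgeR adjusted p = 0.00117) and -3.33 (SE 0.71, edgeR adjusted p = 0.000357), and the T-type gene Cacna1g at -3.00 (edgeR adjusted p = 0.000674) and -1.92 (edgeR adjusted p = 0.0368). With Cacna1c these were 3 of 8 members lower in both pairs, where 16.1% and 14.7% of 10844 genes were.

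The other tested members had the following mineral oil differences. Against heated xylene they were -0.27 for Cacna1d (SE 0.36), -0.08 for Cacna1a (SE 0.33) and -0.73 for Cacna1e (SE 0.41, edgeR adjusted p = 0.288). Against room-temperature xylene they were -0.32, -0.04 and -0.55. In wells of 100 nuclei alone, Cacna1d was called lower after mineral oil than after heated xylene, at -1.26 (SE 0.36, edgeR adjusted p = 0.0187), and with Cacna1c this made 2 of 4 members lower, where 7.01% of 1953 genes were. Against room-temperature xylene it was at -0.74 there (edgeR adjusted p = 0.216), and Cacna1c was the 1 of 4 called lower, where 5.02% of genes were. A cell marker also differed between these groups: Gad1 of GABAergic neurons was lower after mineral oil by -2.78 and -3.07 (log2), called by edgeR in both pairs. Granule marker sums were 2463 CPM after mineral oil, 1709 after heated xylene and 1305 after room-temperature xylene. Their part in the members' values was not tested.

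In SMART-Seq2 wells the test passed no gene of 8372 in any pair of methods, 0% each time, and so none of the 7 members tested. At an unadjusted p under 0.05 edgeR gave 314, 199 and 379 genes, and DESeq2's Wald test passed 20 genes between mineral oil and heated xylene and 24 between mineral oil and room-temperature xylene. Cacna1a was high after mineral oil, with 1998, 1353 and 1687 CPM in the wells of 10, 50 and 100 nuclei. It had 501, 1014 and 1106 CPM after heated xylene, 865, 953 and 583 after room-temperature xylene, and 930, 644 and 583 in the frozen wells. All 3 mineral oil wells lay above every other well, though the share of all genes whose wells part in this way was not counted. The differences were 0.96 and 1.15 (log2, SE 0.41 for both), with edgeR adjusted p = 1.00 in both pairs. Granule marker sums were 2885, 1565 and 2309 CPM after mineral oil, heated xylene and room-temperature xylene, and their part in these values was not tested. Cacna1h, a T-type pore, had 0 counts in all 3 mineral oil wells, against 2 to 66 counts in the heated xylene wells and 0, 7 and 18 in the room-temperature xylene wells of 10, 50 and 100 nuclei.

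The channel's partners gave the following counts in FFPE minus frozen, to be read against all genes tested: 27.7% were called lower and 30.2% higher in SCRB-seq, and 2.64% lower and 1.45% higher in SMART-Seq2. Among the auxiliary subunits, which traffic and tune the pore, 3 of 4 tested of the 8 listed were lower in SCRB-seq: Cacnb2 at -1.79 (SE 0.37), Cacna2d1 at -0.73 (SE 0.32) and Cacna2d3 at -1.23 (SE 0.20). The list's median was -0.98, beside 0.00 for all genes. In SMART-Seq2, 1 of 7 tested was called, again Cacna2d3, at -2.90 (SE 0.51, edgeR adjusted p = 0.000979). Of the gamma subunits, which are mostly known as partners of AMPA receptors, Cacng7 was higher in SCRB-seq at 2.64 (SE 0.44) as the 1 gene tested, and Cacng3 was lower in SMART-Seq2 at -4.39 (SE 0.79), 1 of 6 tested.

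At the release site, where P/Q-type and N-type channels are held close to vesicles, 2 of 7 tested genes were lower in SCRB-seq FFPE wells: Rimbp2, which links the channels to the release machinery, at -2.76 (SE 0.29), and the calcium sensor Syt1 at -1.21 (SE 0.25). That share is near the one over all genes. In SMART-Seq2, 3 of 9 were lower, with Rimbp2 at -2.84 (SE 0.80), Erc2 at -3.06 (SE 0.30) and Stx1a at -5.66 (SE 1.06), and Snap25 was higher at 1.70 (SE 0.27). Between methods, Erc1, a scaffold of the release site, was the 1 list gene called, higher after mineral oil in SCRB-seq at 2.83 (SE 0.66) and 1.91 (SE 0.63).

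Genes for calcium handling inside the cell were called in both directions in SCRB-seq. In SCRB-seq, 3 of 7 tested were lower and 1 was higher: Itpr1, the IP3 receptor of the endoplasmic reticulum, at -2.78 (SE 0.38), the plasma membrane pump Atp2b1 at -1.62 (SE 0.30) and the ryanodine receptor Ryr3 at -1.13 (SE 0.30), against Ryr2 at 0.69 (SE 0.17). In SMART-Seq2, Itpr1 at -2.56 (SE 0.59) and Atp2b1 at -1.17 (SE 0.33) were lower, 2 of 12 tested. The potassium channel Kcnma1, which opens on calcium entry, was lower in SMART-Seq2 at -3.40 (SE 0.39), 1 of 3 tested, and no gene of its list was called in SCRB-seq, where 1 was tested. Of the sodium leak complex, related in structure to these channels, Unc79 at -1.10 (SE 0.31) and Unc80 at -0.80 (SE 0.35) were lower in SCRB-seq, 2 of 3, and none of 3 passed in SMART-Seq2. The glutamatergic markers Camk2a at -3.30 and Nrgn at -2.93 were lower in SCRB-seq FFPE wells too, and their part in these values was not tested.

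The plates give the 8 genes in single nuclei: 143 FFPE nuclei on plates MB14 and MB16 and 137 frozen nuclei on 2 plates. Median counts per nucleus were 47887 in FFPE and 255329 in frozen nuclei. The median nucleus held 4 of the 8 genes in FFPE and 6 in frozen material, and 3 and 4 after thinning each nucleus to 10000 counts. All 8 genes were found together in 5 FFPE and 39 frozen nuclei. Each arm is 1 group of nuclei with no replicate, so no test was made, and intervals cover counting error only, since PCR reads are not independent molecules.

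The share of nuclei with a count was close between the arms for 3 genes and lower in FFPE, with intervals apart, for the other 5. Of the 15022 genes found in at least 5% of the nuclei of either arm, 65.8% were lower in FFPE by the same rule, and 31.7% of 9844 at a fixed 10000 counts, where 4 of the 8 members were. A lower share in FFPE by any amount was found for 6 members and 96.3% of genes as counted, and for 5 members and 86.2% of genes at 10000 counts. Cacna1a was found in 86.0% of FFPE nuclei (exact 95% binomial interval 79.2 to 91.2) and 84.7% of frozen nuclei, Cacna1c in 80.4% and 84.7%, and Cacna1e in 75.5% and 73.7%. Cacna1b was found in 27.3% of FFPE nuclei (20.2 to 35.4) and 70.1% of frozen nuclei (61.7 to 77.6).

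Among the T-type genes the shares were 13.3% against 38.0% for Cacna1g, 13.3% against 57.7% for Cacna1h and 23.8% against 58.4% for Cacna1i. Cacna1d lay between, at 59.4% against 80.3%. At a fixed 10000 counts per nucleus, which left out 8 FFPE and 10 frozen nuclei, Cacna1b was still at 15.6% (9.90 to 22.8) against 52.8% (43.7 to 61.7). Cacna1h was then at 6.67% against 32.3%, Cacna1i at 12.6% against 33.1% and Cacna1d at 37.8% against 59.8%, while Cacna1a at 69.6% against 65.4%, Cacna1c at 67.4% against 63.0% and Cacna1e at 62.2% against 57.5% had overlapping intervals. The interval of Cacna1g in FFPE, 2.59% to 11.3%, then overlapped that of frozen nuclei, 7.38% to 19.7%.

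Both plates of an arm gave like shares. Cacna1b was found in 24.6% of MB14 nuclei and 29.7% of MB16 nuclei, and in 72.5% and 67.6% of the nuclei of the frozen plates. Cacna1h was found in at most 13.5% of the nuclei of either FFPE plate and in 56.5% and 58.8% of those of the frozen plates. The frozen plates were apart from both FFPE plates for each of these genes.

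**Figure D4:**
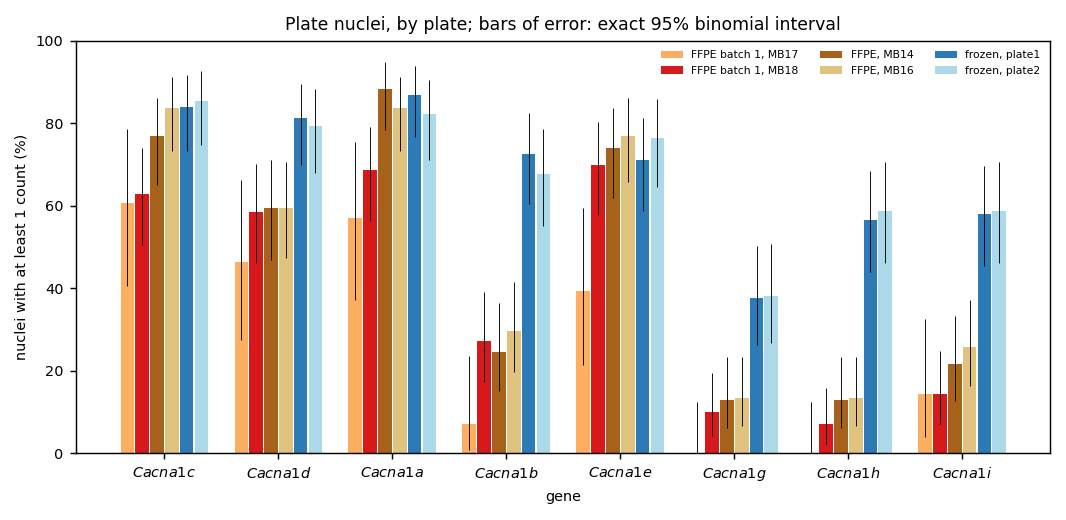
Percent of nuclei with at least 1 count (vertical axis, bars from 0) of each pore gene (horizontal axis) on each SMART-Seq2 plate, with exact 95% binomial intervals. Cacna1b, Cacna1g, Cacna1h and Cacna1i stand higher on both frozen plates than on all 4 FFPE plates, whereas Cacna1a, Cacna1c and Cacna1e overlap between FFPE plates MB14 and MB16 and the frozen plates.

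Pooled levels give the same order for Cacna1b but rest on few nuclei. Of the FFPE nuclei, 134 are also those of batch 2, and 9 more hold 57.3% of all FFPE counts, so both values are given. Cacna1b had 56.5 CPM in FFPE and 353 in frozen nuclei, a level 6.24 times higher in frozen nuclei, or 3.69 times without the 9. Cacna1h had 44.4 and 208 CPM, 4.68 times, or 2.72 times without the 9.

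Cacna1g had 12.2 and 33.9 CPM, 2.77 times higher in frozen nuclei, or 3.64 times without the 9. At least 2-fold lower in FFPE were thus 3 of the 8 members, where 33.8% of 11302 genes were. None was 2-fold higher in FFPE in pooled CPM, for which the share of all genes was not counted. Cacna1i had 82.6 CPM in FFPE and 96.6 in frozen nuclei, but 173 in FFPE without the 9, so its direction turned. So did that of Cacna1d, with 328 CPM in FFPE, 511 without the 9, and 451 in frozen nuclei. A single FFPE nucleus, at 18902 CPM, held 40.4% of all FFPE counts of Cacna1d, and without it FFPE stood at 197 CPM. Then 4 members were at least 2-fold lower, and the share of all genes without that nucleus was not counted. Cacna1e went from 482 to 838 CPM without the 9, against 450 in frozen nuclei, and Cacna1c from 536 to 724, against 791. When the CPM of single nuclei were averaged, Cacna1c went the other way, with 872 in FFPE against 574 in frozen nuclei, and at 10000 counts it had 879 against 590. Cacna1e then had 850 against 445.

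Cacna1a stood out in 2 frozen nuclei, 1 on each plate, where it took 47.3% and 29.4% of all counts, with 205 and 254 genes detected. These 2 nuclei hold 36.6% of the Cacna1a counts of the frozen nuclei, and the next highest frozen nucleus had 4413 CPM. The frozen level of Cacna1a was 876 CPM with them and 556 without, against 468 CPM in FFPE (844 without the 9 nuclei). Averaged over single nuclei, it had 874 CPM in FFPE and 416 in frozen nuclei without the 2, so that the direction turned. Other members were concentrated too: in FFPE nuclei, 2 nuclei held 50% of the counts of each of Cacna1d, Cacna1g and Cacna1i, while in frozen nuclei this took 9 nuclei for Cacna1d, 5 for Cacna1g and 6 for Cacna1i. Granule markers summed to 1075 CPM in FFPE and 70.1 in frozen nuclei, and their part in these values was not tested.

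Batches 1 and 2 of the FFPE plates compare like material at different depth, with 98 nuclei (median 180584 counts) and 134 nuclei (median 42747). The third batch named in the labels has a table with 0 nuclei. Cacna1h had 15.6 CPM in batch 1 and 76.3 in batch 2, and Cacna1i had 45.0 and 173. The ratios of batch 2 to batch 1 were 4.89 and 3.84 in pooled CPM, and 2.22 and 1.47 when the CPM of single nuclei were averaged. Cacna1h was found in only 5 nuclei of batch 1 and 12 of batch 2. In pooled CPM these were the 2 members at least 2-fold higher in batch 2, where 35.1% of 10436 genes were.

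All 8 members were found in a higher share of nuclei in batch 2, as were 57.6% of the 10616 genes found in at least 5% of the nuclei of either batch. Marker genes moved too, Camk2a from 25.5% to 42.5% and the astrocyte gene Slc1a3 from 25.5% to 37.3%, and their part in these values was not tested. At 10000 counts 6 members were higher in batch 2, and Cacna1b at 16.7% and 13.5% and Cacna1d at 38.9% and 37.3% were not. The share of all genes higher in batch 2 at 10000 counts was not counted. For Cacna1a the shares were 65.3% and 85.1%, and for Cacna1c 62.2% and 79.1%. Cacna1b was close, at 21.4% and 24.6%, with pooled levels of 91.6 and 95.6 CPM. Within batch 1, plate MB17 (28 nuclei) had 0 counts of Cacna1g and Cacna1h and 135 CPM of Cacna1e, and plate MB18 (70 nuclei) had 21.4, 18.4 and 1245 CPM. A count of 0 nuclei of 28 allows a share of up to 12.3% by the exact 95% binomial interval.

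Marker gates that use none of the 8 genes place them in kinds of neurons. Among frozen nuclei, 17 had Slc17a7 and no Gad1 or Gad2 (glutamatergic gate) and 36 had Gad1 or Gad2 and no Slc17a7 (GABAergic gate), while 50 had both and 34 had neither. Median counts were 842592 and 313943 in the gates. Of the 8 members, 5 were at least 2-fold higher in the glutamatergic gate, where 33.5% of 9073 genes were. None was 2-fold higher in the GABAergic gate, for which the share of all genes was not counted. Without the 2 nuclei of high Cacna1a the 5 became 4, where 33.6% of 9077 genes were.

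Cacna1c had 1368 CPM in the glutamatergic and 625 in the GABAergic gate, a ratio of 2.19. Cacna1a had 1861 and 628 CPM, a ratio of 2.96, but only 698 CPM in the glutamatergic gate without 1 of the 2 nuclei above, which lay in it. Cacna1d was the member higher in the GABAergic gate, at 749 against 477 CPM. The release-type gene Cacna1b had 373 and 244 CPM, and Cacna1e 607 and 347.

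In pooled CPM the T-type genes differed most between the gates. With the CPM of single nuclei averaged, Cacna1g had a lower ratio than Cacna1c, at 1.92 against 2.46. Cacna1i had 207 CPM in the glutamatergic and 58.7 in the GABAergic gate, a ratio of 3.53, and Cacna1h had 263 and 83.5, a ratio of 3.15. Cacna1g had 45.6 and 1.06 CPM, 589 against 18 counts, and was found in 52.9% and 13.9% of the nuclei. Its ratio of 42.9 in pooled CPM became 1.92 when the CPM of single nuclei were averaged, a mean of 17.1 CPM in the GABAergic gate in which 1 nucleus had 498 CPM. With a gate of 10 counts the ratios were 119 and 162, from 8 counts in the GABAergic gate. At 10000 counts Cacna1i was found in 68.8% and 6.25% of the nuclei, and Cacna1h in 56.3% and 21.9%.

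In FFPE nuclei the gate was Gabra6, with 56 nuclei that had it and 87 that did not. Cacna1i had 106 CPM in nuclei with Gabra6 and 16.8 in those without, a ratio of 6.32, and was found in 42.9% (29.7 to 56.8) and 11.5% (5.65 to 20.1) of them. It was the 1 member at least 2-fold higher, where 40.8% of 10406 genes were. Cacna1d was the member at least 2-fold lower with Gabra6, at 211 against 655 CPM, where 31.2% of genes were. That value rests on the nucleus of 18902 CPM above: without it the nuclei that lack Gabra6 had 158 CPM, which turns the direction, and the shares were 62.5% with Gabra6 and 57.5% without.

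Without the 9 deep nuclei, 4 of the 8 members were at least 2-fold higher with Gabra6, where 34.1% of 9160 genes were. Cacna1i had 331 and 19.3 CPM, Cacna1a 1195 and 504, Cacna1h 125 and 29.3, and Cacna1g 15.3 and 3.51. Over all 56 and 87 nuclei, Cacna1a was found in 98.2% of those with Gabra6 and in 78.2% of those without. Their median counts were 67776 and 42315, and at 10000 counts the shares of Cacna1a were 79.3% and 56.1%, and those of Cacna1i 20.8% and 4.88%.

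The droplet table holds 7031 FFPE nuclei, all with different barcodes, in 12 classes named by the authors: 6 neuron classes of 5580 nuclei and 6 non-neuronal classes of 1451. Median depth was 325 and 326 UMIs. The members had 1735 UMIs in all for Cacna1a, 1304 for Cacna1c, 980 for Cacna1e, 759 for Cacna1d, 338 for Cacna1b, 179 for Cacna1i, 89 for Cacna1g and 31 for Cacna1h. At least 1 UMI of a member was found in 50.5% of nuclei.

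Classes were only partly separated by their own markers at this depth. Slc17a7, a gene of glutamatergic neurons, had 563 CPM in neuron and 440 CPM in non-neuronal classes, and was found in 18.4% and 14.5% of nuclei. Camk2a had 496 and 472 CPM. The astrocyte gene Slc1a3 was further apart, at 203 and 819 CPM. Shares of a pore gene in non-neuronal classes are read beside these values. The class ExNeuron4 held the most GABAergic marker UMIs, 3290 CPM in sum against 784 to 1944 in the other neuron classes, and is called here by its number only.

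In pooled CPM, the neuron to non-neuronal ratio was higher for Cacna1c and Cacna1a than for Slc17a7, which had 1.28. Cacna1c had 549 CPM in neuron classes (exact 95% Poisson interval 518 to 582) and 309 in the others (263 to 360), a ratio of 1.78. Cacna1a had 726 (690 to 764) and 427 (373 to 486), a ratio of 1.70. Among the non-neuronal classes its level ranged from 342 CPM in astrocytes to 751 in microglia (471 to 1137), which lay above the pooled neuron value. Of the 5 members with at least 200 UMIs, these 2 were at least 1.5-fold higher in neuron classes, as were 9.33% of 2734 genes, whose median ratio was 1.04.

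Cacna1d had 310 and 219 CPM (ratio 1.41) and Cacna1e 398 and 290 (1.38), with intervals that did not overlap. Cacna1b had 132 and 122 CPM, a ratio of 1.08 with overlapping intervals, and so its level in neuron classes could not be told from that in the non-neuronal classes together. Cacna1i had 70.2 and 62.8 CPM and Cacna1g 34.1 and 34.3. For Cacna1h, 29 and 2 UMIs gave 13.9 and 3.81 CPM, with overlapping intervals.

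Shares of nuclei gave the same picture. Cacna1a was found in 23.0% of neuron and 13.4% of non-neuronal nuclei, and in 19.2% and 12.2% after thinning to 300 UMIs, which left out 2580 nuclei. Cacna1c was found in 17.4% and 9.72%, and 14.8% and 8.96% after thinning. For Cacna1b the shares were 4.80% and 4.34%, close to each other.

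The L-type genes were highest in the class ExNeuron6 (209 nuclei). Cacna1c had 1194 CPM there (968 to 1456), above the intervals of all 11 other classes, of which ExNeuron3 was next at 734 CPM (651 to 824), and then ExNeuron2, ExNeuron5, ExNeuron1 and ExNeuron4 between 518 and 450. Non-neuronal classes lay between 424 CPM in endothelial and 202 in fibroblast nuclei. In 9 of the 11 steps of this order the neighbours overlapped.

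Cacna1d had 591 CPM in ExNeuron6 (436 to 783), whose interval overlapped those of microglia, ExNeuron4 and fibroblast nuclei, and it was lowest in oligodendrocytes at 138 CPM. Against all other nuclei, Cacna1c was 2.47 times and Cacna1d 2.06 times higher in ExNeuron6, places 21 and 40 of 2734 genes. The leading genes of that class were Cpne4, Meis2, Pcbp3, Pbx3 and Myo16. The classes come from clustering on genes of the same nuclei, so these ratios are a description.

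Cacna1a had another order. It was highest in ExNeuron3 at 931 CPM (838 to 1032), with an interval above those of 8 of the 11 others. The classes that overlapped it were all non-neuronal: microglia at 751 CPM, endothelial nuclei at 618 and fibroblast nuclei at 454. ExNeuron6 was the lowest neuron class at 492 (352 to 670), below microglia and endothelial nuclei. Astrocytes were lowest at 342 CPM. ExNeuron3 had the largest granule marker sum of the 12 classes, 2263 CPM, and Fat2 among its leading genes.

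Cacna1b and Cacna1e had no class whose interval stood above the others. Cacna1b ranged from 0 UMIs in the 47 fibroblast nuclei to 150 CPM in ExNeuron5, and Cacna1e from 175 CPM in oligodendrocytes to 454 in fibroblast nuclei. Of the T-type genes, Cacna1i was highest in ExNeuron6 at 148 CPM (76.3 to 258), Cacna1h too at 36.9 from 3 UMIs, and Cacna1g in ExNeuron4 at 62.8 (37.8 to 98.1). Apart from 1 class each for Cacna1i and Cacna1g, all intervals overlapped these highest ones.

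**Figure D5:**
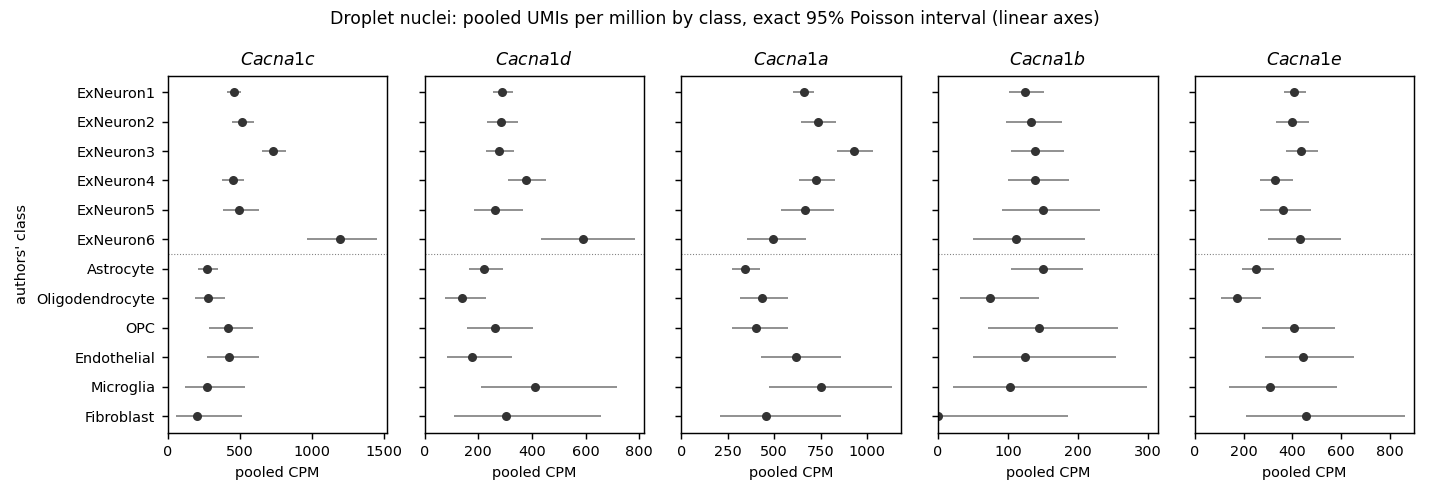
Pooled CPM of UMIs (horizontal axes, linear, 1 panel per gene) in each of the authors' 12 droplet classes (vertical axis), with exact 95% Poisson intervals and a dotted line between neuron and non-neuronal classes. ExNeuron6 stands apart for Cacna1c at 1194 CPM, ExNeuron3 leads for Cacna1a at 931 CPM, and the intervals of Cacna1b overlap in all classes.

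The genes most like each member over the 12 classes were found by the Pearson correlation of log2(CPM + 10), among 2733 genes with at least 200 UMIs. For Cacna1c they were Epha3 (r = 0.92), Celf4 (0.92) and Oxr1 (0.90), for Cacna1a Scn2a1 (0.90), Caln1 (0.84) and Rbfox1 (0.83), and for Cacna1d Ip6k1 (0.86), Gsk3a (0.81) and Psip1 (0.81). For Cacna1e they included Cyp46a1 (0.85) and Btg1 (0.80). For Cacna1b they were Akap11, Camkmt and Inpp4b (all 0.98), and over the 11 classes other than fibroblast nuclei, which had 0 UMIs of Cacna1b, r was 0.65, 0.72 and 0.66. Cacna1c and Cacna1d, both L-type, had r = 0.48, and Cacna1a with Cacna1c 0.38. The 12 points share 1 library and differ in depth and class size.

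The partner genes were ordered likewise by the neuron to non-neuronal ratio. Of the most abundant auxiliary subunits, Cacnb4 had 864 and 621 CPM (1.39), Cacna2d1 562 and 390 (1.44) and Cacna2d3 418 and 288 (1.45). At the release site, Rims1 had 1688 and 948 CPM, a ratio of 1.78 like that of Cacna1c, Syt1 2944 and 1792 (1.64) and Snap25 2446 and 2017 (1.21). Rims1, which tethers channels at the release site, was at 2176 CPM in ExNeuron3 and 837 in ExNeuron6, the classes where Cacna1a was highest and lowest among neurons. Rims2, Erc1 and Unc13a were also higher in ExNeuron3. The rest of the list went the other way. In ExNeuron3 and ExNeuron6, Erc2 had 459 and 763 CPM, Stx1a 126 and 234, and Syt1 2471 and 2695. Snap25 had 2666 and 2757, and Rimbp2 43.6 and 49.2.

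Kcnma1 had 798 and 526 CPM (1.52) in neuron and non-neuronal classes, Ryr2 670 and 409 (1.64), Atp2b1 685 and 529 (1.29) and Atp2b2 746 and 676 (1.10). Of the sodium leak complex, Unc79 had 238 and 150 CPM (1.58), Unc80 486 and 320 (1.52) and Nalcn 220 and 189 (1.17). These ratios lay in the same range as those of the pore genes, 0.996 for Cacna1g to 1.78 for Cacna1c among members with more than 31 UMIs.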

How the data were processed

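The deposited bulk and plate tables hold whole-number counts per gene for each well or nucleus, and the deposited droplet table holds UMI counts; the units were checked from the values (whole numbers with different sums). The submitters' processing notes name the builds hg19 and mm10. The sources used here give neither the aligner nor the counter, nor any collapse of SCRB-seq counts by UMI. Human genes that the SCRB-seq table also lists entered no fit. The batch 3 table holds 0 nuclei. The deposited table of FFPE and frozen plate nuclei repeats the 134 nuclei of batch 2, with 0 values that differ over 21117 shared genes.

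Bulk counts were tested with the quasi-likelihood test of edgeR 4.0.16, run in R 4.3.3 (filterByExpr, then TMM, Benjamini-Hochberg adjustment over all mouse genes tested, no covariates). Method pairs were fitted on FFPE wells, and FFPE minus frozen on all wells, with equal weight to each of the 3 methods. DESeq2 1.42.0, other filters, nuclei number as a factor, wells of 10 or of 100 nuclei alone, and leaving out each SMART-Seq2 well were alternatives. The fits were tested on simulated data. Nuclei have 1 sample per group and no test: CPM are counts summed over nuclei and scaled to a common total, with exact 95% Poisson intervals, and shares have exact 95% binomial intervals. The backgrounds of folds are genes with at least 10 CPM in either group of plate nuclei, or at least 200 UMIs in droplets. Droplet classes are the authors' deposited annotation, no doublet caller was run, and the matrix sum equals the annotated total for 6900 of the 7031 nuclei. Thinning drew counts without replacement, with a fixed seed. Sequences came from GENCODE M21 transcripts (GRCm38) and RefSeq promoters (GRCm38.p6). Python 3.11.15, numpy 2.4.6, scipy 1.17.1, pandas 2.3.3 and matplotlib 3.10.9 were used.

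Named are the 8 members, from 7 fixed lists the genes called in a contrast and otherwise the 3 of highest level in the table described, and per member the 3 genes most alike over droplet classes. The members and lists were chosen with earlier results of these data known. The nuclei-number interaction and the results without the 2 frozen nuclei of high Cacna1a, gates without the 9 deep FFPE nuclei, results without the FFPE nucleus of most Cacna1d counts, and likeness without the fibroblast class, were added after seeing the data. Some results under this rule are left out here.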

Additional observations from a re-analysis of the deposited data

Results flagged for a closer look

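In 14 of 62 groups of 8 SCRB-seq wells, the highest well stood further from the next than Dixon's 95% value allows. Chance flags about 1 in 20 groups of normally distributed values, a rate that these skewed counts need not follow. A group with a count in only 1 of its 8 wells is always beyond that value, as for Cacna1b and Cacna1h in mineral oil wells of 10 nuclei. In frozen wells of 100 nuclei this was Cacna1h at 169.6 CPM (next 50.1). In mineral oil wells of 10 nuclei it was Cacna1d at 1214 CPM (next 609), Cacna1b at 121.8 (next 0), Cacna1e at 152.9 (next 62.4) and Cacna1h at 99.76 (next 0). In heated xylene wells of 10 nuclei it was Cacna1d at 479.7 CPM (next 256) and Cacna1i at 191.8 (next 18.8), and at 100 nuclei Cacna1a at 2598 (next 1051), Cacna1b at 486.7 (next 136), Cacna1g at 154 (next 30.9) and Cacna1i at 190.1 (next 106). In room-temperature xylene wells of 10 nuclei it was Cacna1c at 1477 CPM (next 651), Cacna1b at 695.2 (next 73.0) and Cacna1e at 1093 (next 511).

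FFPE minus frozen differed between 10 and 100 nuclei per SCRB-seq well by -2.26 for Cacna1i and -1.99 for Cacna1c (log2, edgeR interaction, adjusted p = 0.0397 and 0.00393).

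The SCRB-seq table also lists human genes, which enter no comparison. Human-reference genes of the 8 members summed to 68.6 CPM after mineral oil, 21.2 after heated xylene and 12.2 after room-temperature xylene, against 11.03 in frozen wells. These are 54, 27, 16 and 12 counts, and 29 of the 54 are CACNA1B. All human genes took 13.2%, 11.5%, 11.4% and 2.08% of counts in these groups.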

How the results depend on the processing

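Cacna1b and Cacna1i were lower in SCRB-seq FFPE wells in all alternatives that tested them, from -2.51 to -2.27 and from -2.29 to -1.77 (log2). No member passed between SMART-Seq2 FFPE and frozen wells in any alternative. Depth limits Cacna1g and Cacna1h in wells and in droplets.

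Genes called in SCRB-seq between mineral oil and heated xylene numbered 92, and 152 with DESeq2's Wald test, 3415 with no filter, 2448 with a looser filter, 143 with nuclei number as a factor and 256 with wells of 100 nuclei. Members called there numbered 0, and 1 with the Wald test, the factor or wells of 10 nuclei, 2 with wells of 100 and 3 with no or a looser filter. Between the xylene methods 21 genes became 59, 2899, 1780, 62 and 117 under the same first 5 settings. Between mineral oil and room-temperature xylene 111 became 2925, 2062, 201 and 178 (no filter, looser filter, factor, 100 nuclei), and members called became 1 with the Wald test, the factor, wells of 100 or wells of 10 nuclei and 3 with no or a looser filter. For FFPE minus frozen 857 became 4785, 3765 and 478 (no filter, looser filter, 10 nuclei). The number of genes tested differs between these filters, and other causes were not tested.

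In SMART-Seq2, where 0 genes were called between methods, 20, 19 and 17 were for mineral oil and heated xylene (Wald test, no filter, looser filter), 5 and 8 between the xylene methods (no filter, looser filter), and 24, 16 and 16 for mineral oil and room-temperature xylene. Without 1 well these were 0 to 6 and 0 to 8 genes in the mineral oil pairs. FFPE minus frozen went from 372 to 641 with the Wald test and ranged from 162 to 469 without 1 well. It was 174, 187 and 162 without each frozen well.

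Signs turned for members that passed no test in the reported fit. Against heated xylene these were Cacna1d at 0.81 (10 nuclei), and Cacna1a at 0.034 and Cacna1e at 0.060 (100 nuclei). Against room-temperature xylene they were Cacna1d at 0.14 (10 nuclei), Cacna1e at 0.14 (100 nuclei) and Cacna1a at 0.045 (DESeq2's size factors), 0.052 (Wald test) and 0.24 (100 nuclei). For SCRB-seq FFPE minus frozen, with a looser filter, the factor and wells of 10 nuclei, Cacna1c was at -0.027, -0.23 and -1.64 and Cacna1a at -0.015, -0.0029 and -0.50, and Cacna1d was at -0.081 with 10 nuclei. In SMART-Seq2, Cacna1c ranged from -0.068 (without heated xylene replicate 3) to 0.327 when 1 well was left out, and was at -0.061 without room-temperature xylene replicate 2. With DESeq2's size factors the median of all genes in SCRB-seq FFPE minus frozen moved from 0.00 to 0.11.

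Of the plate counts, members at least 2-fold higher in batch 2 went from 2 to 1 with the mean over nuclei and to 1 with thinning, and members with a higher share in batch 2 from 8 to 5 at 5 counts. Members higher with Gabra6 went from 1 to 2 with the mean and to 4 without the 9 deep nuclei, and members lower from 1 to 2 with a gate of 10 counts, to 0 with the mean and to 0 without the nucleus of most Cacna1d counts. The causes were not tested. No paired analysis was possible because the annotation gives the wells no replicate number: the SMART-Seq2 numbers 1, 2 and 3 only name the wells of 100, 50 and 10 nuclei here, and the fit with nuclei number as a factor is the one that matches wells on it.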

Other observations

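Outside the named members, some droplet genes of the fixed lists were lower in neuron than in non-neuronal classes. The 2 of lowest ratio are described here, chosen after their values were seen. Itpr2, an IP3 receptor known from astrocytes, had 11.1 CPM in neuron and 101 CPM in non-neuronal classes, from 23 and 53 UMIs. Cacng4, a gamma subunit known from glial precursors, had 18.8 and 81.9 CPM, from 39 and 43 UMIs. Also lower in neuron classes were Kcnn3, Cacng5, Kcnn2, Cacng7 and Cacna2d4, with ratios of 0.50, 0.66, 0.71, 0.80 and 0.82.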
